A study of Mus musculus with 4 samples.

Results

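The LDL receptor family is a group of cell-surface receptors that bind secreted proteins and lipoproteins, and 9 of its genes, Vldlr, Lrp1, Lrp2, Lrp4, Lrp5, Lrp6, Lrp8, Lrp10 and Lrp12, are described here out of 55357 gene identifiers in the deposited count table. They were taken as a named list, by gene symbol, and the list was put together with the difference between precipitate and input already known, because Lrp2 has the largest ratio among well-expressed genes. All 9 were found and all 9 passed the low-count filter that left 17422 genes to be tested. Their precipitate to input ratios are therefore given as a description, with no test.

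RNA precipitated with an antibody to DDX20 was sequenced in 2 libraries (RIP), and input RNA, for which 10% of the total served, in 2 more. DDX20, also called Gemin3, is an RNA helicase of the SMN complex, the machine that builds the Sm protein ring on spliceosomal small nuclear RNAs. Both groups were testis cells taken from C57BL/6 mice at 7 days of age, with no transgene or treatment named, and both were described as exposed to 254 nm light at 200 mJ per square cm to crosslink RNA to protein. The antibody field reads none for input, and for the RIP pair it gives DDX20 catalogue numbers that differ in 1 character. A control precipitation with another antibody was not used here, so a higher value says that a message took up more of the RIP libraries than of input, not that DDX20 bound it. The labels do not say that replicates came from separate mice, so any spread or p-value covers these libraries only and may be technical.

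Members of the family share an outer part built of cysteine-rich ligand-binding repeats and, in most, propeller domains that release the ligand inside the cell. The giants Lrp1 and Lrp2 (megalin) clear proteases, carrier proteins and lipoproteins by endocytosis. Vldlr and Lrp8 (ApoER2) receive Reelin and apolipoprotein E, and Lrp8 takes up selenoprotein P in the testis. Lrp5 and Lrp6 are the Wnt co-receptors, Lrp4 is the agrin receptor, and Lrp10 and Lrp12 are more distant members with CUB domains and less settled ligands.

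Codon runs that match short signals for endocytosis and for Wnt signalling were found near the end of the coding sequence, and Lrp2 held a match to each. The codons for Asn-Pro-any-Tyr, an endocytosis signal of such receptors, were searched in frame in the last 150 codons of each member's transcript (GENCODE M21, GRCm38). They were present in 5 of 9 members, Lrp1, Lrp2, Lrp4, Lrp8 and Vldlr, against 1.22% of the coding sequences of 14673 protein-coding genes tested. The codons for the proline- and serine-rich motif whose phosphorylation passes the Wnt signal on were present there in Lrp5, Lrp6 and Lrp2, against 0.239% of all. Lrp5 and Lrp6 held more than 1 such run and Lrp2 only 1, and a match is not a shown signal. The lines below show 1 site per receptor and motif from the message strand, 5′ to 3′, with the codons of the motif in capitals.
Lrp1: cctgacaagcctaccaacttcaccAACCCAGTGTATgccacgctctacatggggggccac
Lrp2: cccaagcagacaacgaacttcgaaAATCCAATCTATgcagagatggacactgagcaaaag
Vldlr: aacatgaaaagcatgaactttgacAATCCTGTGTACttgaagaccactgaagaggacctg
Lrp8: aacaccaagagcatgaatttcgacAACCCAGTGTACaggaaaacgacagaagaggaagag
Lrp4: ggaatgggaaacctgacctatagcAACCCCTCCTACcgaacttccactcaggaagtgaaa
Lrp2, Wnt-type motif: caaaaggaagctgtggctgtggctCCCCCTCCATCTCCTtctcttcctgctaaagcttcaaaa
Lrp5: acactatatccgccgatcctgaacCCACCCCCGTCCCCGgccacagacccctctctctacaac
Lrp6: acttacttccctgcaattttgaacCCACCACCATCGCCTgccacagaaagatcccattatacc

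Because the SMN complex acts on RNAs that carry an Sm site, the members' messages were also searched, on the message strand, for the Sm consensus AATTTTTGG and for its shorter core ATTTTTG, which lies inside it. The consensus was found in 1 of 9 members, Lrp2, inside the coding sequence. Of 110 other tested messages whose length was between 0.8 and 1.2 times that of Lrp2, 6.36% held it, and of all 14673 messages 1.32% did. The core occurred 10 times in 6 members, at 4 places in coding sequence and 6 in untranslated regions. It was not found in Lrp12, Lrp4 or Lrp10, where 36.2%, 58.2% and 37.2% of messages near each in length held it. Near Lrp2 in length 75.5% of messages held the core, and of all 14673 messages 29.4% did. A match here is a run of letters and not a shown binding site. The consensus site of Lrp2 and the coding-sequence core sites of Lrp6 and Lrp5, with the match in capitals, are given for comparison.
Lrp2: gagaaaatgtAATTTTTGGaatttccctt
Lrp6: aattgtcaccATTTTTGtgtctggaac
Lrp5: gctcccacatATTTTTGggttcacact

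Every member stood higher in both RIP libraries than in both input libraries, with ratios from 1.47-fold for Lrp8 to 7.32-fold for Lrp2. The same separation upward was seen for 42.7% of all genes tested, and since the list was made with this contrast in view, nothing is read from the count. The median log2 fold change was 1.46 over the 9 members and -0.053 over all tested genes. Values are in CPM, read counts divided by library size, with library sizes adjusted by the trimmed mean of M values (TMM). At least 2-fold ratios were seen in 7 members, all but Lrp10 and Lrp8, where 17.1% of tested genes were called and at least 2-fold higher.

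**Figure D1:**
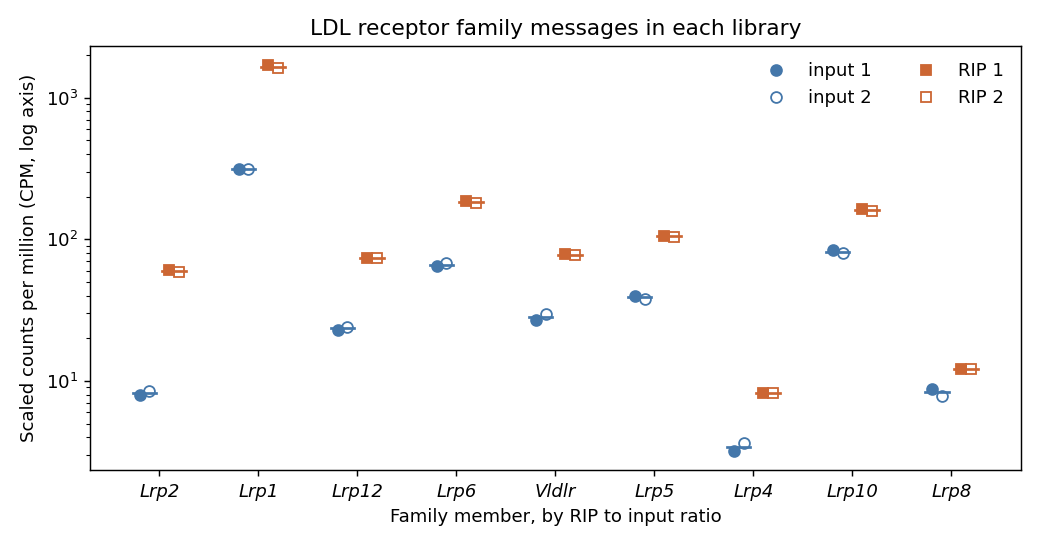
Scaled CPM (log axis) of the 9 family members in the 2 input (blue circles) and 2 RIP (orange squares) libraries, with bars at the group means and genes ordered by RIP to input ratio. RIP points lie above input points for every member, from 12.24 and 12.15 against 8.71 and 7.87 CPM for Lrp8 to 60.8 and 59.1 against 7.94 and 8.45 CPM for Lrp2.

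Lrp2, or megalin, which retrieves vitamin carriers, hormones bound to carriers and other filtered proteins, was counted 196 and 204 times in input and 2057 and 2000 times in RIP. That is 7.94 and 8.45 CPM in input against 60.8 and 59.1 CPM in RIP, means of 8.19 ± 0.355 and 59.97 ± 1.19 (SD, n = 2). The groups did not overlap, but the list was made with this ratio known, so nothing is read from the gap. The log2 fold change was 2.87 ± 0.0815 (SE), number 19 among all tested genes. It was the highest of 9828 genes with a mean of at least 10 CPM over input and RIP together. Lrp2 passed that limit only through its RIP level, with 8.19 CPM in input. The list was made with this rank known, so nothing is read from it. The gene (ENSMUSG00000027070) spans positions 69424340 to 69586065 of chromosome 2 on the minus strand (GRCm38), with 79 exons and a coding sequence of 13980 nt, the longest in the family.

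Lrp1, the broad clearance receptor for proteases, inhibitors and lipoproteins, was by far the most abundant member. It stood at 316 and 315 CPM in input and 1698 and 1615 CPM in RIP. The RIP pair was less tight than the input pair, with SDs of 58.4 and 0.771 CPM, and no RIP value came near an input value. The log2 fold change was 2.39 ± 0.0262. Lrp1 made up 54.9% of the family's summed CPM in input and 70.8% in RIP, while Lrp2 went from 1.43% to 2.56%. It lies on chromosome 10 between 127538161 and 127621148, has 89 exons and codes for 13635 nt, close to Lrp2.

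Vldlr and Lrp8, both receptors of Reelin, resembled each other in coding length (2619 and 2865 nt, 19 exons each) but not in ratio. Vldlr stood at 26.7 and 29.9 CPM in input and 78.8 and 77.5 CPM in RIP, a log2 fold change of 1.46 ± 0.0614. Lrp8 stood at 8.71 and 7.87 CPM in input and 12.24 and 12.15 CPM in RIP, a log2 fold change of 0.56 ± 0.122 and the smallest in the family. Its RIP values were still above both input values, by less than for any other member. Of the 50-base runs of Lrp8, 1.33% also occur in other genes, none of them members. Vldlr carries a 3′ untranslated region of 5094 nt, the longest of the 9, and Lrp8 one of 1591 nt. Vldlr lies on chromosome 19 from 27216484 to 27254231 and Lrp8 on chromosome 4 from 107802261 to 107876840.

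The Wnt co-receptors Lrp5 and Lrp6 had nearly the same ratio. Lrp6 stood at 64.4 and 67.5 CPM in input and 188 and 180.4 CPM in RIP, a log2 fold change of 1.48 ± 0.0413. For Lrp5 the values were 40.0 and 37.8 CPM in input and 106 and 103 CPM in RIP, a log2 fold change of 1.43 ± 0.0513. The gap between the 2 estimates is smaller than the sum of their standard errors. Both have 23 exons and coding sequences of nearly equal length (4842 and 4839 nt), whereas the 3′ untranslated region has 205 nt in Lrp5 and 4313 nt in Lrp6. Base composition differed too, with 58.6% G and C in the Lrp5 message and 46.0% in that of Lrp6. Lrp6 lies on chromosome 6 from 134446476 to 134566965, and Lrp5 on chromosome 19 from 3584828 to 3686564.

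Lrp4, the receptor that joins agrin to the kinase MuSK, was the rarest member by count. Its counts were 79 and 88 in input and 280 and 278 in RIP, or 3.20 and 3.64 CPM against 8.28 and 8.22 CPM. The log2 fold change of 1.27 had the widest error of the family, ± 0.165. Lrp4 lies on chromosome 2 from 91457511 to 91513779, with 38 exons and 5715 coding nt.

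The distant members Lrp10 and Lrp12 have the fewest exons, 7 each, yet their ratios were far apart. Lrp12 stood at 23.1 and 24.2 CPM in input and at 73.8 CPM in each RIP library, a log2 fold change of 1.64 ± 0.0626, below only Lrp2 and Lrp1 in the family. Lrp10 stood at 84.1 and 79.8 CPM in input and 165 and 159.5 CPM in RIP, a log2 fold change of 0.98 ± 0.0406. Lrp12 lies on chromosome 15 from 39870589 to 39943994 and Lrp10 on chromosome 14 from 54464137 to 54471497. Part of Lrp10 is shared with the predicted gene Gm10366 on the opposite strand, 475 exonic bases or 10.6% of its exonic length, and the library kit does not mark strand. Gm10366 itself was counted 6 and 7 times in input and 13 and 8 times in RIP.

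Levels can be set between genes only per length. Per kb of exonic sequence, Lrp10 (18.4 ± 0.679 CPM per kb; SD, n = 2) and Lrp1 (17.8 ± 0.0435) led in input and did not differ beyond their spread on this scale. Next came Lrp12 (5.15 ± 0.172) and Lrp6 (4.83 ± 0.159), whose means ± SD overlap, then Lrp5 (3.99 ± 0.163) and Vldlr (2.81 ± 0.223). Lrp8 (0.788 ± 0.0570), Lrp2 (0.491 ± 0.0212) and Lrp4 (0.326 ± 0.0297) closed the order. In RIP, Lrp1 at 93.5 ± 3.30 CPM per kb stood alone above Lrp10 at 36.3 ± 0.818, and Lrp2 at 3.59 ± 0.0711 passed Lrp8 at 1.16 ± 0.00590. The order of the other members did not change. With the length of the chosen transcript in place of all exonic sequence, Lrp5 (7.53 CPM per kb) and Lrp6 (7.04) stood above Lrp12 (5.75) in input, and Lrp1 (21.2) above Lrp10 (19.4), so the order within both of these sets depends on the length used. Per length, Lrp2 was thus the second rarest member in input, after Lrp4, although it had more counts per kb than Lrp8 in RIP.

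**Figure D2:**
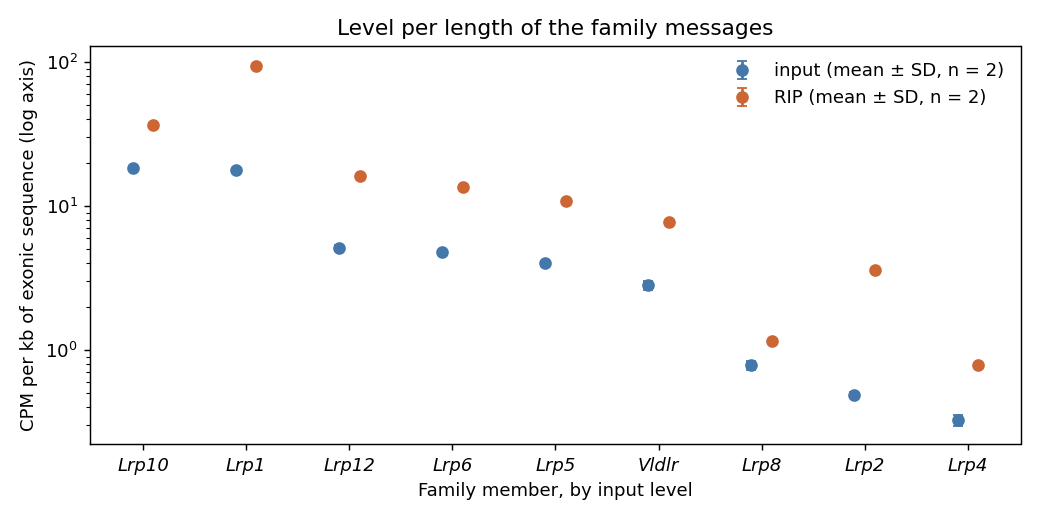
CPM per kb of exonic sequence (log axis) of the 9 members in input (blue) and RIP (orange), as mean ± SD of 2 libraries, with genes ordered by their input level. Lrp10 and Lrp1 lie together in input at 18.4 and 17.8 CPM per kb, and Lrp1 lies alone at 93.5 CPM per kb in RIP.

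Ratio and coding length went together across the table. Over the 14673 protein-coding genes, Spearman's rho between log2 fold change and coding length was 0.637. This is a description across genes that share the same 4 libraries. The median log2 fold change was -1.24 in 1356 genes coding for under 500 nt and 1.73 in 88 genes coding for at least 10000 nt. The length of the 3′ untranslated region had a weaker relation (rho 0.266), and G and C content almost none (0.0669). Within the family the giants Lrp2 and Lrp1 headed the order, but Lrp12, with 2574 coding nt, stood above Lrp6, Lrp5 and Lrp4, which code for 4839 nt or more.

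**Figure D3:**
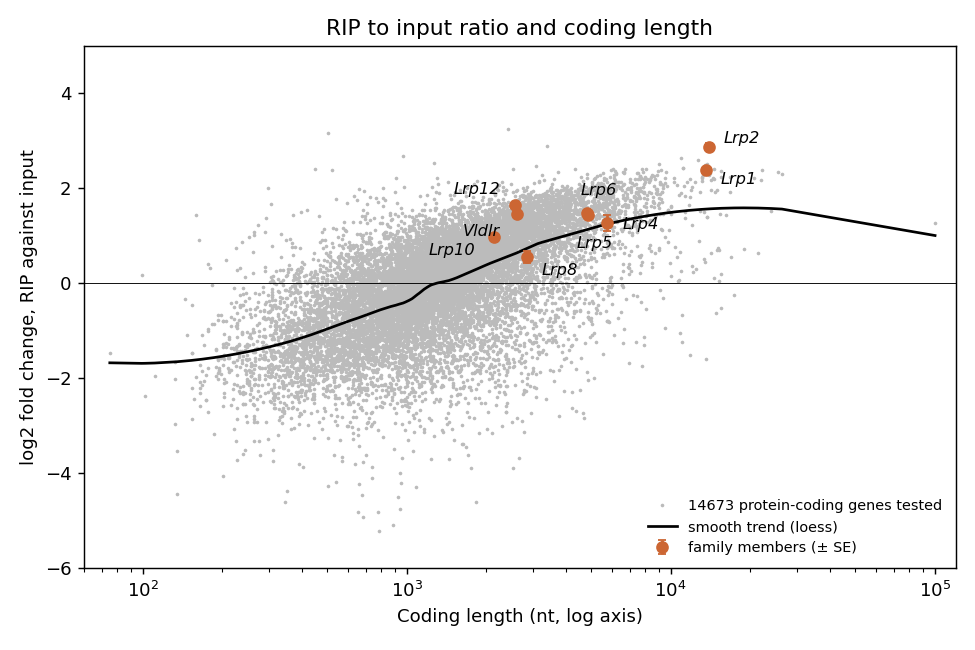
Log2 fold change of RIP against input plotted on coding length (nt, log axis) for 14673 protein-coding genes (grey), with the loess trend (black) and the 9 members (orange, ± SE). Lrp2 and Lrp1 lie at the upper right at 2.87 and 2.39, and Lrp8 and Lrp4 are the members closest to the line or under it.

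With an offset that takes away the smooth trend on coding length, 7 members stayed above zero and 2 did not. This fit also scaled the libraries anew on the genes with a coding length, so a value is not the distance from the trend alone. Lrp4, below zero here, lay slightly above the trend itself, at 1.27 against 1.24. Lrp2 stood at 1.17 ± 0.0863 (SE), with 3.07% of 14680 genes higher. Lrp12 followed at 0.88 ± 0.0644, Lrp1 at 0.69 ± 0.0229, Vldlr at 0.68 ± 0.0621 and Lrp10 at 0.40 ± 0.0404. The Wnt co-receptors Lrp6 (0.21 ± 0.0414) and Lrp5 (0.16 ± 0.0521) lay near the trend, and Lrp4 was at -0.11 ± 0.172 and Lrp8 at -0.32 ± 0.127. The median of the members was 0.40 after the offset, against -0.00090 for all genes. That trend includes rare genes of great length, many of which had low ratios. Among genes coding for at least 10000 nt, 49 with a mean of at least 10 CPM had a median log2 fold change of 2.17 and 39 rarer ones a median of 0.56. That mean was taken over input and RIP, so a high ratio itself helps a gene into the first set, as for Lrp2 (8.19 CPM in input). Part of the gap between the medians is therefore built in. The part of abundance in the members' ratios was not tested.

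**Figure D4:**
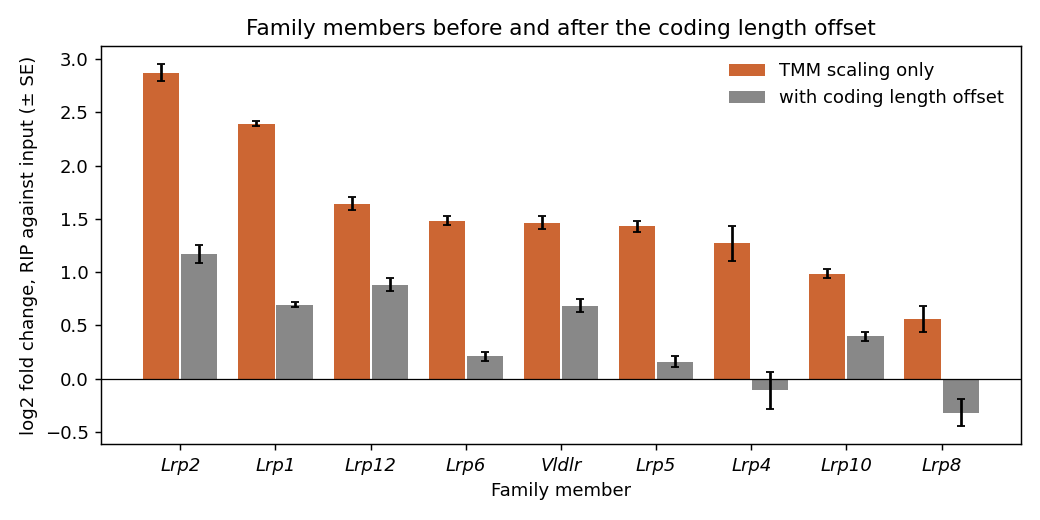
Log2 fold change of RIP against input (± SE) for each member with TMM scaling only (orange) and with the coding length offset (grey). Lrp2 goes from 2.87 to 1.17, and Lrp4 and Lrp8 go to -0.11 and -0.32.

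The genes whose 4 library values were most like those of each main member were found by Euclidean distance over log2 CPM among 14117 protein-coding genes. Nearest to Lrp2 were Col11a1 (distance 0.625), Chd7 (0.719) and Dnah8 (0.721), which encode a fibrillar collagen chain, a chromatin remodeller and an axonemal dynein. Nearest to Lrp1 were Lama5 (0.0638), Pkhd1l1 (0.220) and Dync1h1 (0.236), each with a coding sequence above 10000 nt. Elp2 (0.0540), Ipo4 (0.0792) and Scaf8 (0.0927) were nearest to Lrp6, and Cc2d1a (0.0811), Bap1 (0.0863) and Dync1li2 (0.0996) to Lrp10. In the same order, the genes near Lrp2 code for 5412, 8958 and 14193 nt. Those near Lrp6 code for 2493, 3246 and 3804 nt, and those near Lrp10 for 2829, 2184 and 1476 nt.

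Receptors related to the family but outside the 9 members were mixed. All tests that follow are edgeR's quasi-likelihood test of RIP against input, Benjamini-Hochberg adjusted across the 17422 tested genes at a threshold of 0.05. Of the tested genes 38.7% were called higher and 38.6% lower. With total counts the background was less even, with 4994 genes called higher and 8845 lower. Of 6 tested relatives 3 rose, 1 fell and 2 did not pass, at a median log2 fold change of 0.38. With total counts 2 rose and 2 fell, at a median of 0.029. The coding length offset left 2 higher and 3 lower, at a median of -0.23. Lrp11 rose from 9.67 ± 0.145 to 21.02 ± 1.96 CPM (SD, n = 2), a log2 fold change of 1.12 ± 0.105 (SE), while Ldlrad3 fell by 0.66. Lrp1b, another giant of the family, had a single nonzero library, with 2 counts in input replicate 2, and was not tested.

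Messages for the chaperones and enzymes that make, cut and remove these receptors were split. Of 13 tested, 8 rose and 3 fell at a median of 0.31, against 5 and 6 at -0.036 with total counts. The coding length offset gave 8 and 3 at 0.50. The shedding proteases Adam10 (153 ± 0.739 to 337 ± 0.337 CPM) and Adam17 (log2 fold change 1.36 ± 0.0479) rose. Lrpap1, the chaperone RAP that keeps ligands off the receptors in the secretory path, fell from 237 ± 1.95 to 133 ± 2.61 CPM. Psenen, a small subunit of the gamma-secretase that cuts receptor stubs, fell by 1.98. Mesd, the chaperone that Lrp5 and Lrp6 need to fold, had a log2 fold change of 0.31 ± 0.0559, which turned to -0.036 and was not called with total counts.

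Endocytic adaptors and coat proteins included 12 of 19 that rose and 6 that fell, at a median of 0.56, against 11 and 7 at 0.21 with total counts and 8 and 5 at 0.094 with the coding length offset. Cltc, the clathrin heavy chain, rose from 689 ± 7.77 to 3024 ± 46.4 CPM, a log2 fold change of 2.13 ± 0.0224. The AP-2 adaptor subunit Ap2a2 rose by 1.32 ± 0.0275. By contrast the light chain Clta (-0.47 ± 0.0355) and the small AP-2 subunit Ap2s1 (-1.12 ± 0.0399) fell. With the coding length offset Clta was no longer called (0.0083) and Ap2s1 stood at -0.16, while Cltc stood at 0.84 and Ap2a2 at 0.46. Dab2, an adaptor that binds tail signals of the kind printed above, rose by 1.18.

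Ligands and surface partners gave 10 that rose and 7 that fell of 20 tested at a median of 0.13, against 8 and 9 at -0.22 with total counts. Calls with the coding length offset were 10 higher and 9 lower, at a median of -0.13. App, whose product binds Lrp1 and is sorted with the family, rose by 1.26 ± 0.0255, and Lpl, a lipase that bridges lipoproteins to receptors, by 0.56 ± 0.0323. Clu (clusterin, -0.67 ± 0.0212) and Apoe (-1.15 ± 0.0315), both abundant secreted ligands, fell. Cubn, the partner of megalin in protein uptake, stood at 2.09 ± 0.437 CPM in input and 3.31 ± 0.125 CPM in RIP, a log2 fold change of 0.66 ± 0.236. It was called higher, but not with total counts (0.31), with DESeq2 (0.69) or without input replicate 1 (0.48), and it was called lower with the coding length offset (-0.99).

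In Reelin signalling 9 of 10 members rose and 1 fell, at a median of 0.81, against 9 and 1 at 0.46 with total counts and 8 and 2 at 0.40 with the coding length offset. Pafah1b1 (Lis1), which regulates dynein, rose by 1.09 ± 0.0274 and the adaptor Crk by 0.61 ± 0.0335. Dab1, the adaptor that docks on Vldlr and Lrp8, fell by 1.05, from 8.77 ± 0.363 to 4.23 ± 0.042 CPM. Reln itself, which codes for 10383 nt, rose from 8.18 ± 0.905 to 13.8 ± 0.523 CPM, a log2 fold change of 0.76 that turned to -0.88 and was called lower with the coding length offset.

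Wnt genes were taken as one list of surface and secreted proteins and one of components inside the cell. Of 37 tested ligands, Frizzled receptors and regulators, 17 rose, 8 fell and 12 did not pass, at a median of 0.19. With total counts 13 rose and 11 fell at -0.16, and with the coding length offset 12 rose and 8 fell at 0.048. Fzd7 (0.93 ± 0.0434) and Lgr4 (0.49 ± 0.0486), a receptor for R-spondins, rose, and Wnt6 (-0.67 ± 0.0362) and Wnt5a (-0.52 ± 0.0817) fell. Of 21 intracellular components 18 rose and 3 fell, at a median of 1.11. Their calls were 16 and 3 at 0.76 with total counts and 17 and 3 at 0.57 with the coding length offset. Ctnnb1 (beta-catenin) rose from 436 ± 2.10 to 1217 ± 26.8 CPM, and Csnk1g2, of the kinase family that phosphorylates Lrp6, rose by 1.33 ± 0.03. Csnk1a1 (-0.19 ± 0.0334) and Gsk3a (-0.45 ± 0.0665) fell. The Gsk3a call was lost with the exonic length offset (-0.14), and Csnk1a1 was called higher with the coding length offset (0.085).

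Agrin signalling, which runs through Lrp4, had 3 tested genes. Agrn rose from 54.9 ± 0.537 to 174 ± 5.36 CPM, Rapsn fell by 2.04 ± 0.200 and Dok7 did not pass. Musk had counts of 2 and 4 in input and 0 and 1 in RIP and was not tested. The largest adjusted p of the 28 genes chosen by rule from these lists was 5.76e-06, for Csnk1a1.

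Over all 8 lists 78 of 128 tested genes rose, 29 fell and 21 did not pass. With total counts 65 rose and 39 fell, against 4994 and 8845 of all 17422 tested genes. Coding length moved with these calls as well. Of 42 genes coding for at least 2000 nt 38 rose and the other 4 did not pass, whereas of 24 coding for under 1000 nt 6 rose and 14 fell. Shares called higher among all protein-coding genes were 4.35% under 500 nt and 16.3% from 500 to under 1000 nt. They were 70.8% from 2000 to under 3000 nt, 80.0% to under 5000 nt, 85.2% to under 10000 nt and 76.1% above. Nothing is therefore read from the list counts by length. With the coding length offset the calls were 66 higher and 33 lower, for which no share over all genes is given here. Of the 107 genes called without the offset, 14 turned sign. Of these, 9 were called in the other direction, 7 lower and 2 higher. Among genes named here the signs of Clta, Csnk1a1, Lgr4, Reln and Cubn turned.

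**Figure D5:**
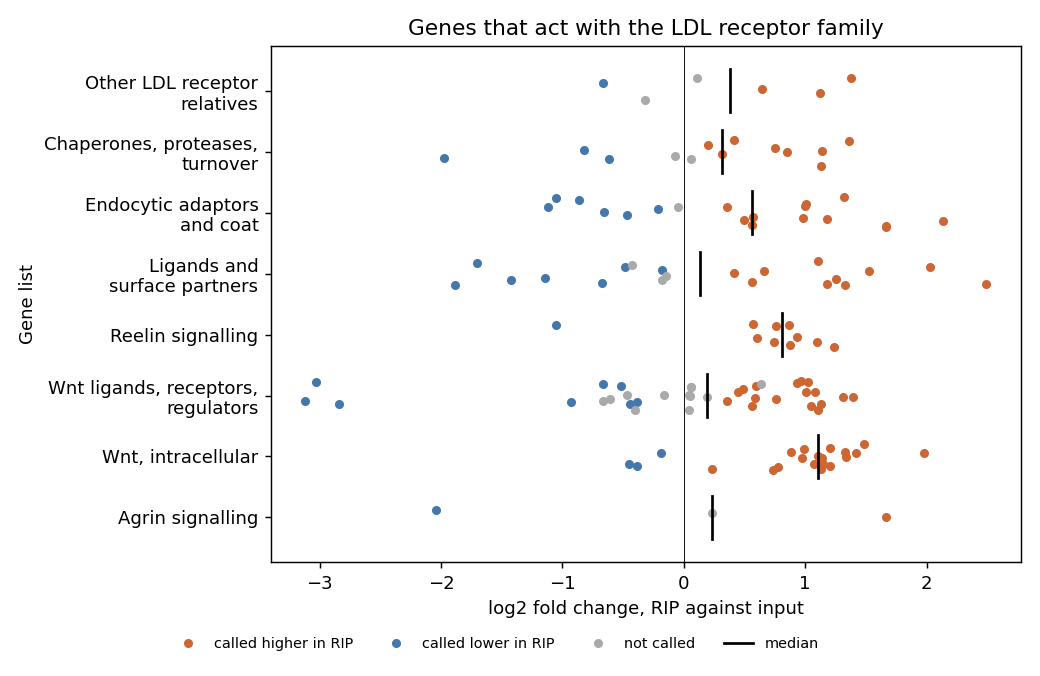
Log2 fold change of RIP against input for the tested genes of the 8 lists around the family, coloured by their call, with a black bar at each list's median. Intracellular Wnt genes and Reelin signalling genes lie mostly to the right, at medians of 1.11 and 0.81, and the ligands and partners spread to both sides around 0.13.

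Library depth and tissue identity bear on all of these values. Total counts ran from 21416567 to 21913977 in input and from 37927689 to 38458014 in RIP. Markers of Sertoli cells (9 of 9 with counts), germ cells (8 of 8), Leydig cells (6 of 6), endothelial cells, macrophages and red blood cells (5 of 5 each) were present, and in each of these lists the summed level was lower in RIP, for example 3413 to 3444 CPM in input and 2036 to 2049 CPM in RIP for Sertoli markers. Single markers did not all follow their sum, as Wt1 and Gata4 of the Sertoli list and Gfra1, Sall4 and Zbtb16 of the germ cell list were higher in both RIP libraries than in both input libraries. Stromal markers summed to 2455 to 2462 CPM in input and 5368 to 5551 CPM in RIP, but without Col1a1 the other 5 summed to 830 to 847 and 582 to 590.1 CPM. Mesothelial markers summed to 1806 to 1846 and 2788 to 2832 CPM, with all 5 higher in both RIP libraries. Megalin is known from duct and kidney epithelium, whose markers were low, with 9.89 to 12.1 CPM in input and 5.26 to 5.50 CPM in RIP for 8 excurrent duct genes. The 6 kidney genes summed to 4.54 to 4.68 CPM in input and 2.31 to 2.57 CPM in RIP, with Umod at 0 in 3 libraries. All 8 duct and all 6 kidney genes also had counts, so having counts does not by itself show that a cell type was there. Both sums were lower in RIP, but single markers were mixed. Of the 8 duct genes 3 were lower in both RIP libraries, 3 overlapped, and Pax2 and Slc9a3 were higher. Of the 6 kidney genes 2 were lower and 4 overlapped. Without Aqp2 the kidney sums overlapped as well, at 0.567 and 1.24 CPM in input and 0.532 and 0.739 CPM in RIP. Bulk samples do not separate cell types, and a marker difference between RIP and input is not a difference in cell number. The cell source of the receptor messages was not tested.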

How the data were processed

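Per the labels' protocols, the NEBNext Ultra RNA kit was used, and 150-nt read pairs were sequenced. The authors deposited raw read counts per gene, 1 column per library; the submitters' processing notes name Trimmomatic 0.36, cutadapt 4.1, STAR 2.7.2b, SAMtools and featureCounts with GRCm38, and the annotation release is not given in the sources used here. Even counts made up 65.4% to 67.4% of nonzero counts, as when both mates are counted, so the depth behind a value is overstated. Symbols, coordinates and transcripts came from GENCODE M21 (GRCm38), which names 94.1% of identifiers, 35 of them with the same version, so lengths may differ from the models counted. Lengths and motifs used the transcript with the best APPRIS rank, then the longest coding sequence; no 50-base run is shared between members.

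Groups and replicate numbers come from sample titles. Genes were filtered with filterByExpr, scaled by TMM and tested with edgeR 4.0.16 (robust quasi-likelihood) in R 4.3.3, with Benjamini-Hochberg adjustment; standard errors are the fold change over the root of F. Replicates differed by 1.19 (input) and 1.15 (RIP) times sampling noise in a median chi-square of halved counts and were kept apart. Alternatives were RLE, upper-quartile and total-count scaling, other filters, DESeq2 1.42.0, limma-voom 3.58.1, the replicate block, each library left out, halved counts, and loess (span 0.3) offsets for coding or exonic length. The fit was checked on simulated data. Members and lists were chosen with earlier results of these data known. Named genes are all members, the 2 called genes per list and direction with the highest mean CPM, and the 3 nearest genes by likeness; 1 gene so chosen is not reported here; Lrp1b, Mesd, Dab2, Cubn, Reln, Dok7 and Musk were named after their values were seen, as was Dab1 among the adaptors.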

Additional observations from a re-analysis of the deposited data

How the results depend on the processing

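The median log2 fold change of the 9 members was 1.46, and it moved to 1.12 with upper-quartile scaling, 1.12 with total counts, 1.38 with a filter of 1 CPM in every library of a group, 0.80 with the exonic length offset and 0.40 with the coding length offset. All 9 members kept a positive sign under the other scalings, filters and tools and with each library left out; Lrp8 fell to 0.21 and Lrp10 to 0.64 with total counts, and the median of all genes went from -0.053 to -0.40. Signs turned with the coding length offset for Lrp4 (-0.11), Lrp8 (-0.32), Clta (0.0083), Csnk1a1 (0.085), Lgr4 (-0.38), Reln (-0.88), Cubn (-0.99) and Fat4 (-1.02), and with the exonic length offset for Lrp8 (-0.13), Clta (0.27), Lpl (-0.13), Reln (-0.25), Cubn (-0.20) and Fat4 (-0.23). Upper-quartile scaling turned Mesd (-0.030) and Dok7 (-0.11), as did total counts (-0.036 and -0.11). The calls of Gsk3a (-0.14) and Mesd (0.047) were lost with the exonic length offset, and that of Cubn with upper-quartile scaling (0.32), total counts, DESeq2 and without input replicate 1. The coding length offset fit also scaled the libraries anew, and Lrp4 lay slightly above the trend itself (1.27 against 1.24). The cause of these turns and lost calls was not tested. Pathway genes called higher ranged from 72 to 78 and lower from 24 to 27 with 1 library left out. The shared replicate number did not pair the libraries by any label, and same-numbered deviations correlated at 0.0078; with the replicate block 78 pathway genes were higher and 30 lower, and 6734 and 6655 of all genes. Low counts, as the 79 and 88 of Lrp4 in input, limit precision, as does the number of libraries.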

Other observations

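Giant genes outside the family varied widely in ratio. Ryr2, a calcium release channel coding for 14898 nt, stood at 1.37 CPM in input and 0.887 CPM in RIP. Its log2 fold change of -0.63 was not called and ranged from -1.03 to -0.25 with 1 library left out. With total counts Ryr2 was called lower (-0.98). Fat4, a giant cadherin coding for 14943 nt, had a log2 fold change of 0.69 at 13.4 CPM in input, which turned to -1.02 with the coding length offset. Apob, a lipoprotein component with a giant coding sequence of 13515 nt, rose by 2.49 ± 0.259 (SE) from 1.04 ± 0.651 to 5.90 ± 0.356 CPM (SD, n = 2). Its rise ranged from 1.97 to 3.36 with 1 library left out and was 0.80 with the coding length offset.
Some Wnt pathway genes were much lower in RIP. Wnt2b went from 3.89 ± 0.289 to 0.443 ± 0.125 CPM and Sostdc1, a secreted Wnt and BMP antagonist, from 1.72 ± 0.142 to 0.207 ± 0.209 CPM (SD, n = 2). Their log2 fold changes were -3.12 ± 0.318 and -3.03 ± 0.519 (SE), and that of Sostdc1, which was near zero counts in RIP, was -2.23 without RIP replicate 1 and -4.72 without RIP replicate 2. Both were called lower by edgeR at an adjusted p of at most 3.47e-06, and their messages code for 1167 and 618 nt. With the coding length offset they stood at -3.14 and -2.40 and were still called lower. The genes of both paragraphs were chosen after their values were seen.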
